A study of Mus musculus with 10 samples.

Results

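The TNF superfamily ligands and receptors were followed in bulk RNA of MB-49 tumors: 36 of the 24202 gene symbols in the table, namely Tnf, Lta, Ltb, Ltbr, Fas, Cd70, Cd40lg, Ngfr and every symbol that starts with Tnfsf or Tnfrsf and a digit, leaving out Tnfrsf4, Tnfrsf9, Tnfrsf18 and Tnfsf13b. They comprise 15 ligands, 6 receptors with a death domain, 10 receptors that signal by binding TRAF adaptors, 4 decoy or soluble receptors (Tnfrsf26, a related mouse receptor, was put with these), and Tnfsf13os, an antisense RNA that the symbol rule also takes in. MB-49 is a mouse bladder cancer cell line, and 100000 cells were placed under the skin of hLrrc32 knock-in mice. All 10 tumors grew in mice of this genotype, which is that of the host and not of the injected line. PIIO-1 is an antibody to GARP (the product of Lrrc32). In the PIIO-1 group, 5 tumors came from mice given 200 µg per mouse into the abdominal cavity on days 6 and 9. In the PBS group, 5 tumors came from mice given PBS. All were collected on day 10 as whole tumors. The labels give no age or sex, and nothing in them says that each tumor came from a separate mouse, so p-values measure the spread between these tumors.

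TNF superfamily ligands are trimeric proteins that sit on the cell surface or are cut from it, and their receptors either carry a death domain, through which they can trigger apoptosis or necroptosis, or recruit TRAF adaptors and switch on NF-kB. Several pairs (CD40 ligand and CD40, LIGHT and its receptors, the lymphotoxins) govern help between T cells, B cells and myeloid cells, and decoy receptors bind ligands without signalling. In tumors these genes are made by cancer cells, leukocytes and stroma alike, and in bulk RNA fewer cells of a type and less RNA per cell cannot be told apart.

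The libraries held 18843192 to 37581521 reads in genes, and 3 reads, taken as the limit that a count of 0 allows, were worth 2.45 to 4.68 normalized counts. The first principal component held 25.4% of the variance, with PIIO-1 tumor 5 farthest out, and the second 14.6%, with PBS tumor 4 farthest out. PBS tumor 4 was also the smallest library, at 18843192 reads, against 29689555 in the next smallest, PIIO-1 tumor 4. The part of library size in the results was not tested. Keratins of MB-49 were abundant (Krt8 from 50292 to 65634 normalized counts in PIIO-1 tumors and 50275 to 63491 in PBS tumors), whereas the epithelial gene Epcam was low (10.9 to 23.5 and 17.6 to 29.6) and the urothelial gene Upk2 was near 0 (up to 0.995 in PIIO-1 tumors and 5.85 in PBS tumors). Of 16 cell type marker lists, 0 genes passed the adjusted test. PIIO-1 tumor 5 had the highest summed level in 11 of the 16 lists, and was highest for 16.7% of all genes tested. Among these lists were neutrophils (15666 to 37517 normalized counts over 6 genes in PIIO-1 tumors, 13030 to 27082 in PBS tumors). T cells were another (1961.6 to 5271 over 8 genes in PIIO-1 tumors, 2718 to 4978 in PBS tumors). So were red blood cells (8372 to 58643 over 5 genes in PIIO-1 tumors, 5488 to 12848 in PBS tumors). A sum follows the most abundant genes of its list. By the mean log2 of normalized count + 1, these 3 lists were again highest in PIIO-1 tumor 5. On that scale epithelium was highest in PBS tumor 3 (9.89), keratinocytes in PIIO-1 tumor 3 (10.2) and skeletal muscle in PIIO-1 tumor 1 (7.59). No marker of the 16 lists was at 0 in every tumor, and the part of these cell types in the results was not tested.

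Windows before the start of transcription are shown for 5 members whose values are described at length, so that the letters can be set beside them; they were picked after the values were seen. The sequences are RefSeq's on GRCm38.p6, 5′ to 3′ on the strand of the gene, cut where the GENCODE M21 gene begins. Capitals mark a match to the NF-kB consensus or to the AP-1 motif TGANTCA (N is any base), searched on both strands. Ltb, at chr17:35194439-35196320 on the plus strand, has its window at chr17:35194257-35194438; Tnf, at chr17:35199381-35202007 on the minus strand, at chr17:35202008-35202257; Tnfsf14, at chr17:57189492-57194177 on the minus strand, at chr17:57194182-57194431; Fas, at chr19:34290666-34327772 on the plus strand, at chr19:34290409-34290658; and Tnfrsf25, at chr4:152115934-152120119 on the plus strand, at chr4:152115684-152115933.
Ltb: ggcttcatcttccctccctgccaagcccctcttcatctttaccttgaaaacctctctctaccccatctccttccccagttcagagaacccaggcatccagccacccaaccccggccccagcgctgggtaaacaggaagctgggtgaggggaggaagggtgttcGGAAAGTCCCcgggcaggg
Tnf: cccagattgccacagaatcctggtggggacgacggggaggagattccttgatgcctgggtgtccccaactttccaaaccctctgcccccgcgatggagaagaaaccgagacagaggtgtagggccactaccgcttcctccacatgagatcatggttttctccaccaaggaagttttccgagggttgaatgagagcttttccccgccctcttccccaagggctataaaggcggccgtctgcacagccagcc
Tnfsf14: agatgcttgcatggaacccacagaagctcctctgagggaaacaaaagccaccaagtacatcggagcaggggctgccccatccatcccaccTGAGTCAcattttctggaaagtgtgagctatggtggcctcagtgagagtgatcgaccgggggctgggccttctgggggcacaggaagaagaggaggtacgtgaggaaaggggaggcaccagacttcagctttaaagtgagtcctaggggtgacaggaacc
Fas: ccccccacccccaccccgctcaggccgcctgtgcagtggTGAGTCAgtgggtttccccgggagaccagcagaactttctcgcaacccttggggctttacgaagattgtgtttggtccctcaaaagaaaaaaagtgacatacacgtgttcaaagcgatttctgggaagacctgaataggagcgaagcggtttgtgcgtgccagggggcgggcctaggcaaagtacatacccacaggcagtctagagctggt
Tnfrsf25: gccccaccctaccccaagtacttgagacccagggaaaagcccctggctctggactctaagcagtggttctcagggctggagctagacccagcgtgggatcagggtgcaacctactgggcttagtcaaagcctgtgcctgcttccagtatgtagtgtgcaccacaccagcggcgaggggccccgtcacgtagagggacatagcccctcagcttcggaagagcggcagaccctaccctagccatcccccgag
The Ltb match lies 87 to 78 bases before the RefSeq start, the Tnfsf14 match 160 to 154 bases before it and the Fas match 211 to 205 bases before it; the windows of Tnf and Tnfrsf25 hold neither set of letters. RefSeq windows were found for 26 of the 36 members. These 26 members have 28 windows, since some have more than 1 start. The NF-kB consensus was in 3 of the 28 windows (10.7%: Ltb, Tnfrsf8 and a second start of Tnfrsf25), against 7.25% of all 32851 windows. TGANTCA was in 4 of 28 (14.3%: Fas, Tnfrsf8, Tnfsf13 and Tnfsf14), against 6.75% of all windows. A match is a run of letters and not a measured binding site.

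All 36 members had reads. Of these, 32 had a mean of at least 10 normalized counts and were tested (13 ligands, 6 death-domain receptors, 8 TRAF-binding receptors, 4 decoy or soluble receptors and the antisense RNA). On a scale per length (RPKM, reads per kilobase of exon per 1000000 reads), receptors stood above ligands at the top of the order: Tnfrsf1a, the main receptor for TNF, averaged 81.5 ± 9.59 RPKM in PIIO-1 tumors and 80.0 ± 6.05 RPKM in PBS tumors (SD, n = 5 each). Next came Tnfrsf12a, the receptor for TWEAK (75.7 ± 4.73 RPKM in PIIO-1 tumors and 78.7 ± 8.44 RPKM in PBS tumors), and Tnfrsf1b, the other TNF receptor, found mainly on leukocytes (66.9 ± 9.99 RPKM in PIIO-1 tumors and 61.6 ± 5.68 RPKM in PBS tumors). The levels of these 3 receptors overlapped between tumors. Ngfr, the p75 neurotrophin receptor, averaged 53.4 ± 3.35 RPKM in PIIO-1 tumors and 59.5 ± 8.74 RPKM in PBS tumors, and Ltbr, the lymphotoxin beta receptor, 38.1 ± 1.59 RPKM in PIIO-1 tumors and 39.5 ± 1.78 RPKM in PBS tumors. Tnf was the ligand with the highest level, at 29.4 ± 15.8 RPKM in PIIO-1 tumors and 23.2 ± 8.11 RPKM in PBS tumors. Below it among ligands stood Ltb (14.7 and 13.8 RPKM in PIIO-1 and PBS tumors), Tnfsf14 (12.5 and 9.92 RPKM) and Tnfsf9 (12.2 and 10.1 RPKM), whose values overlapped. At the bottom stood Cd70, Tnfsf18, Tnfrsf17 and Tnfrsf19, with group means of at most 0.262 RPKM.

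**Figure D1:**
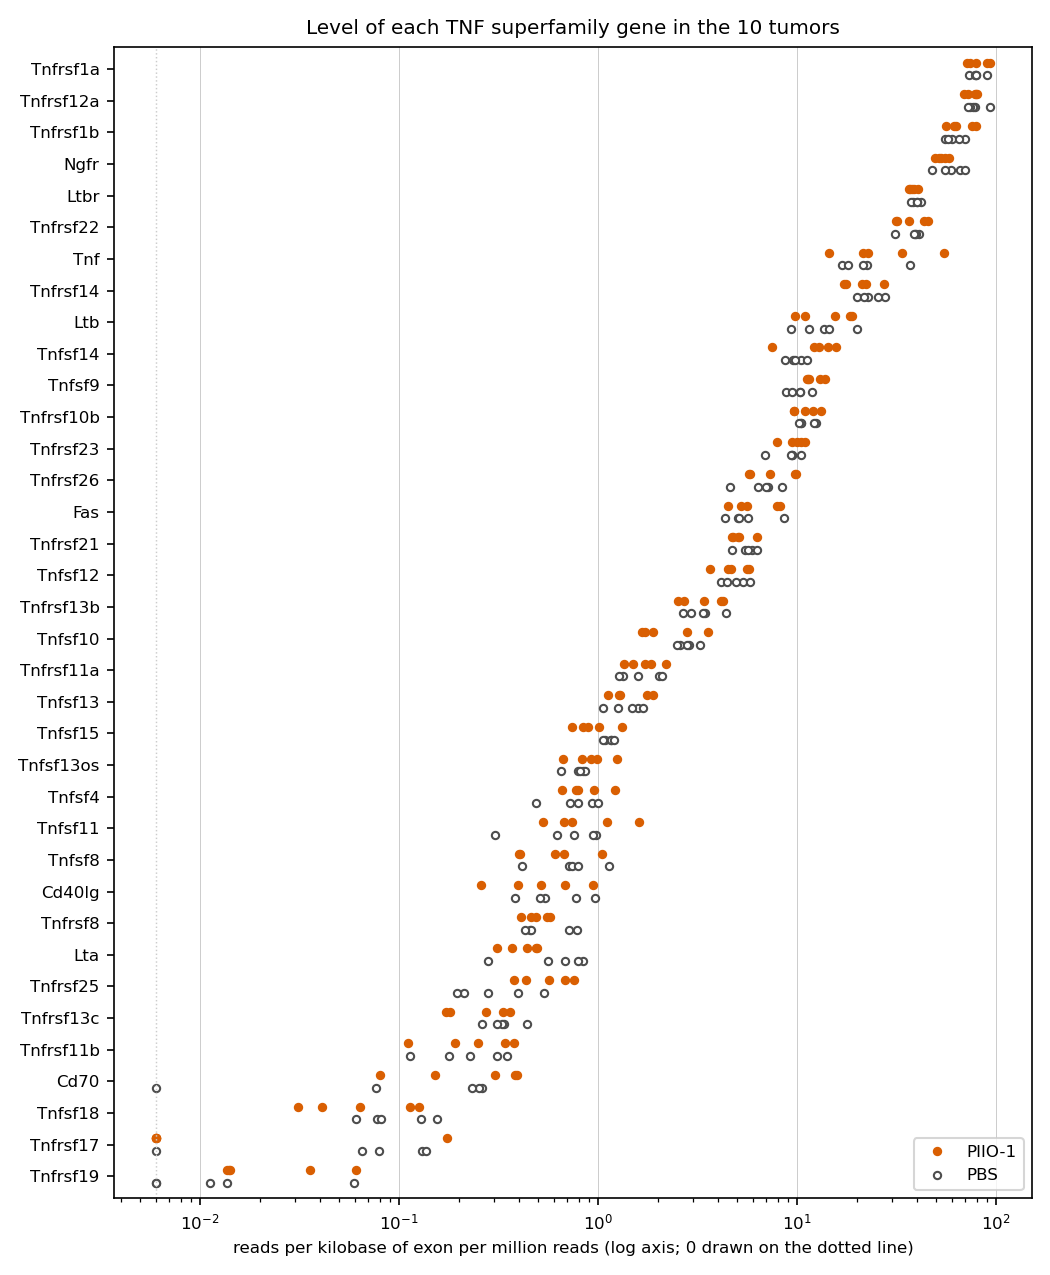
Level of each of the 36 genes in reads per kilobase of exon per 1000000 reads (log axis, a value of 0 drawn on the dotted line), ordered by the mean over all tumors; filled points are the 5 PIIO-1 tumors and open points the 5 PBS tumors. Tnfrsf1a, Tnfrsf12a and Tnfrsf1b stand at the top with all tumors between 55.6 and 93.4, and the 2 sets of points overlap for every tested gene.

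PIIO-1 tumors were set against PBS tumors to ask whether these genes differed after the antibody was given. No group was given a control antibody. An effect of blocking GARP and one of giving an antibody therefore cannot be told apart. None of the 32 tested members passed limma's moderated test at a Benjamini-Hochberg adjusted p of 0.05 (0 of 16767 genes did, 0%), none passed edgeR's quasi-likelihood test (0%), and none passed DESeq2's Wald test, which called 3 genes of the table (0.0179%). At an unadjusted p under 0.05, limma and edgeR each gave 2 members (Tnfsf9 and Tnfrsf25, both higher in PIIO-1 tumors), and DESeq2 gave 3, with Tnfsf14 added; over all genes these shares were 5.63%, 5.8% and 6.06%, so that 2 of 32 is near the background. Differences were positive in 19 members and negative in 13, with a median of 0.05 (log2 of normalized count + 1, PIIO-1 minus PBS) against 0.0027 over all genes tested. Values of the PIIO-1 and PBS tumors overlapped in all 32 members. They did not overlap in 0.853% of all genes, so that overlap in all 32 is near the background. The 95% interval of the difference stayed within 1.5-fold in either direction for 17 members (53.1%), 4 of 13 ligands and 13 of 18 receptors, against 69.6% of all genes. Members also spread more between tumors than genes in general: their median coefficient of variation was 21.9% in PIIO-1 and 16.7% in PBS tumors, against 12.1% and 10.3% over all genes tested, which also differ in level.

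**Figure D2:**
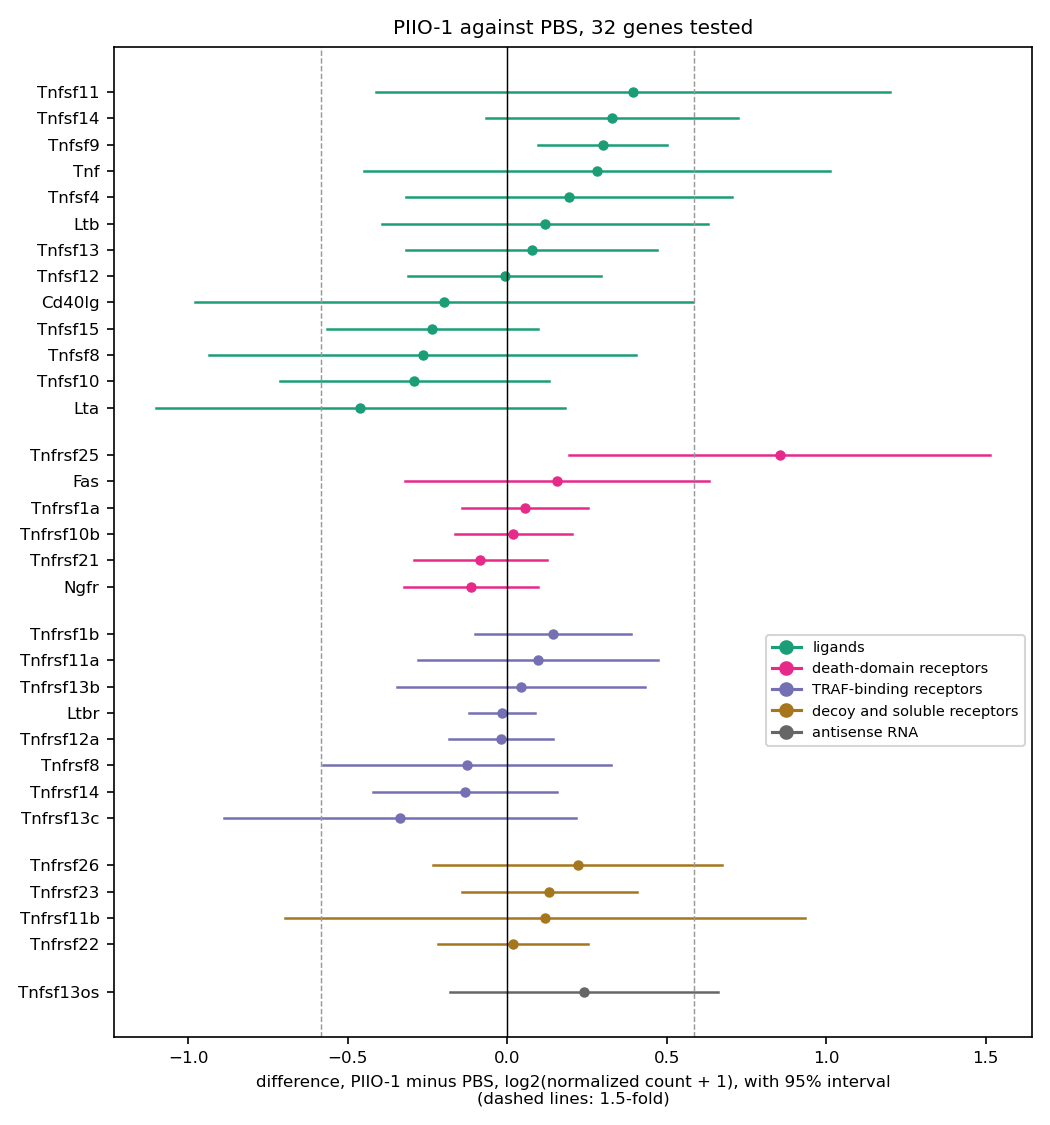
Difference between PIIO-1 and PBS tumors for the 32 genes tested, as log2(normalized count + 1), with the 95% interval from limma (n = 5 per group); dashed lines mark 1.5-fold. Tnfrsf25 has the largest difference at 0.85, and ligand intervals are mostly wider than receptor intervals.

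Among ligands, Tnfsf9, which costimulates T cells through CD137, had the smallest p. Its gene lies at chr17:57105325-57107757 on the plus strand, and it had 537, 443, 466, 453 and 536 normalized counts in PIIO-1 tumors 1 to 5, against 345, 463, 408, 390.1 and 375 in PBS tumors 1 to 5. PIIO-1 tumors were higher in 23 of the 25 pairs of a PIIO-1 and a PBS tumor, and the overlap came from PBS tumor 2. The means were 487 ± 45.9 in PIIO-1 tumors and 396 ± 44.1 in PBS tumors (SD, n = 5 each), a difference of 0.30 (SE 0.092, 95% interval 0.098 to 0.50) with a limma p of 0.00726 and a Benjamini-Hochberg adjusted p of 0.837. It was 0.25 to 0.36 with each tumor left out. A long noncoding RNA on the opposite strand, Gm11110, overlaps 192 exon bases of Tnfsf9 (14.9%). Without a strand setting the reads of both cannot be told apart.

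Tnfsf14 encodes LIGHT, a ligand of Tnfrsf14 and Ltbr that acts on T cells and stroma. It had 418, 682, 745, 905 and 848 normalized counts in PIIO-1 tumors 1 to 5, against 587, 536, 554, 469.7 and 636 in PBS tumors 1 to 5. PIIO-1 tumors 2 to 5 were above every PBS tumor, while PIIO-1 tumor 1 was the lowest of the 10. The difference was 0.33 (SE 0.18, 95% interval -0.066 to 0.72), and 0.23 to 0.51 with each tumor left out, the highest without PIIO-1 tumor 1. Neutrophil markers were highest in PIIO-1 tumors 4 and 5 as well, as given with the relations across tumors.

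Tnf, the founding cytokine of the family, had 712, 1122, 1096, 1732 and 2879.5 normalized counts in PIIO-1 tumors 1 to 5, against 1853, 833, 1134, 864 and 1087 in PBS tumors 1 to 5. PIIO-1 tumor 5 was the highest and PIIO-1 tumor 1 the lowest of the 10, and PBS tumor 1 was the second highest. The means were 1508 ± 849 in PIIO-1 tumors and 1154 ± 413 in PBS tumors (SD, n = 5 each), a difference of 0.28 (SE 0.33, 95% interval -0.45 to 1.01). Leaving out PIIO-1 tumor 5 gave 0.0067 and leaving out PIIO-1 tumor 1 gave 0.51. With the pair at the ends of the principal components removed (PIIO-1 tumor 5 and PBS tumor 4), the difference was -0.082.

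Beside Tnf on chromosome 17 lie Lta and Ltb, the lymphotoxin genes, whose products join into a ligand of Ltbr; the 3 genes span 35194439 to 35205351. Ltb had 445, 710.5, 522, 875 and 918 normalized counts in PIIO-1 tumors 1 to 5, against 930.4, 429, 536, 607 and 677 in PBS tumors 1 to 5. High and low tumors occurred in both groups, with PBS tumor 1 highest and PBS tumor 2 lowest, and the difference was 0.12 (SE 0.23). Lta had a level of 0.419 and 0.630 RPKM in PIIO-1 and PBS tumors, with 12.9, 20.6, 21.1, 19.1 and 16.3 normalized counts in PIIO-1 tumors 1 to 5, against 28.7, 11.7, 23.7, 34.3 and 33.6 in PBS tumors 1 to 5. All PIIO-1 tumors were below 4 of the PBS tumors, with PBS tumor 2 the lowest of the 10, and the difference was -0.46 (SE 0.29, 95% interval -1.10 to 0.18), from -0.72 to -0.35 with each tumor left out. The differences of the 3 neighbours thus had unlike signs, and none passed the test.

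Ligands of death receptors came next. Tnfsf10 encodes TRAIL, which kills through Tnfrsf10b, and had 264, 447, 313, 588 and 290.4 normalized counts in PIIO-1 tumors 1 to 5, against 416, 458, 401, 501 and 453 in PBS tumors 1 to 5. PBS tumors lay close together, whereas PIIO-1 tumors 1, 3 and 5 were below all of them and PIIO-1 tumor 4 was above; the difference was -0.29 (SE 0.19, 95% interval -0.71 to 0.13). Tnfsf15 encodes TL1A, the ligand of Tnfrsf25, and had 89.5, 85.1, 106, 139 and 79.0 normalized counts in PIIO-1 tumors 1 to 5, against 118, 110.2, 109, 114 and 124 in PBS tumors 1 to 5. The spread was likewise wider in PIIO-1 tumors, 4 of which were below every PBS tumor while PIIO-1 tumor 4 was the highest of the 10, and the difference was -0.23 (SE 0.15, 95% interval -0.56 to 0.096).

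Several ligands of T cell activation and of bone biology had group means under 1 RPKM. Tnfsf11 encodes RANKL, which drives osteoclast formation and lymph node development, and had 35.8, 49.9, 47.2, 78.3 and 115 normalized counts in PIIO-1 tumors 1 to 5, against 66.9, 20.5, 42.5, 49.9 and 64.6 in PBS tumors 1 to 5. PIIO-1 tumors 4 and 5 were above every PBS tumor, the other 3 were among them, and the difference was 0.40 (SE 0.37), from 0.12 to 0.58 with each tumor left out. Cd40lg, the T cell signal to CD40 on antigen-presenting cells, had 14.9, 19.6, 10.1, 37.0 and 27.2 normalized counts in PIIO-1 tumors 1 to 5, against 29.6, 20.5, 14.7, 18.7 and 37.0 in PBS tumors 1 to 5. The groups overlapped throughout, with a difference of -0.20 (SE 0.36). Tnfsf4, the OX40 ligand, ranged over 38.2 to 71.7 normalized counts in PIIO-1 tumors and 27.3 to 56.8 in PBS tumors, a difference of 0.19 (SE 0.23), and Tnfsf8, the CD30 ligand, over 45.8 to 128 normalized counts in PIIO-1 tumors and 47.8 to 126 in PBS tumors, a difference of -0.26 (SE 0.31). Cd70, the ligand of CD27, was below the filter, with 10, 10, 4, 2 and 9 reads in PIIO-1 tumors 1 to 5, against 7, 2, 0, 4 and 7 in PBS tumors 1 to 5. Its sums of 35 and 20 reads rest on too few reads to rank the groups. Tnfsf18, the GITR ligand, had 24 reads in all PIIO-1 tumors and 32 in all PBS tumors.

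Tnfsf12 and Tnfsf13 lie next to each other on chromosome 11. Tnfsf12 encodes TWEAK, the ligand of Tnfrsf12a, and had 262, 212, 174, 268 and 219 normalized counts in PIIO-1 tumors 1 to 5, against 191, 204, 249.9, 220.0 and 271 in PBS tumors 1 to 5, a difference of -0.0075 (SE 0.14). Tnfsf13 encodes APRIL, which acts on B and plasma cells, and had 93.5, 87.1, 66.3, 65.6 and 59.0 normalized counts in PIIO-1 tumors 1 to 5, against 79.3, 52.7, 74.3, 60.9 and 84.4 in PBS tumors 1 to 5, a difference of 0.077 (SE 0.18). Neither showed a separation of the groups. Their counts are uncertain: the read-through gene Tnfsfm13 (31.8 to 60.3 normalized counts in PIIO-1 tumors and 35.9 to 61.4 in PBS tumors) shares 48.3% of the exon bases of Tnfsf12 and 60.0% of those of Tnfsf13 on the same strand. The antisense RNA Tnfsf13os, which overlaps 221 exon bases of Tnfsf13, had 27.9, 33.3, 43.2, 23.3 and 32.7 normalized counts in PIIO-1 tumors 1 to 5, against 26.7, 28.3, 22.0, 28.1 and 27.6 in PBS tumors 1 to 5. PIIO-1 tumor 3 stood highest and PIIO-1 tumors 1 and 4 were among the PBS values, with a difference of 0.24 (SE 0.19).

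**Figure D3:**
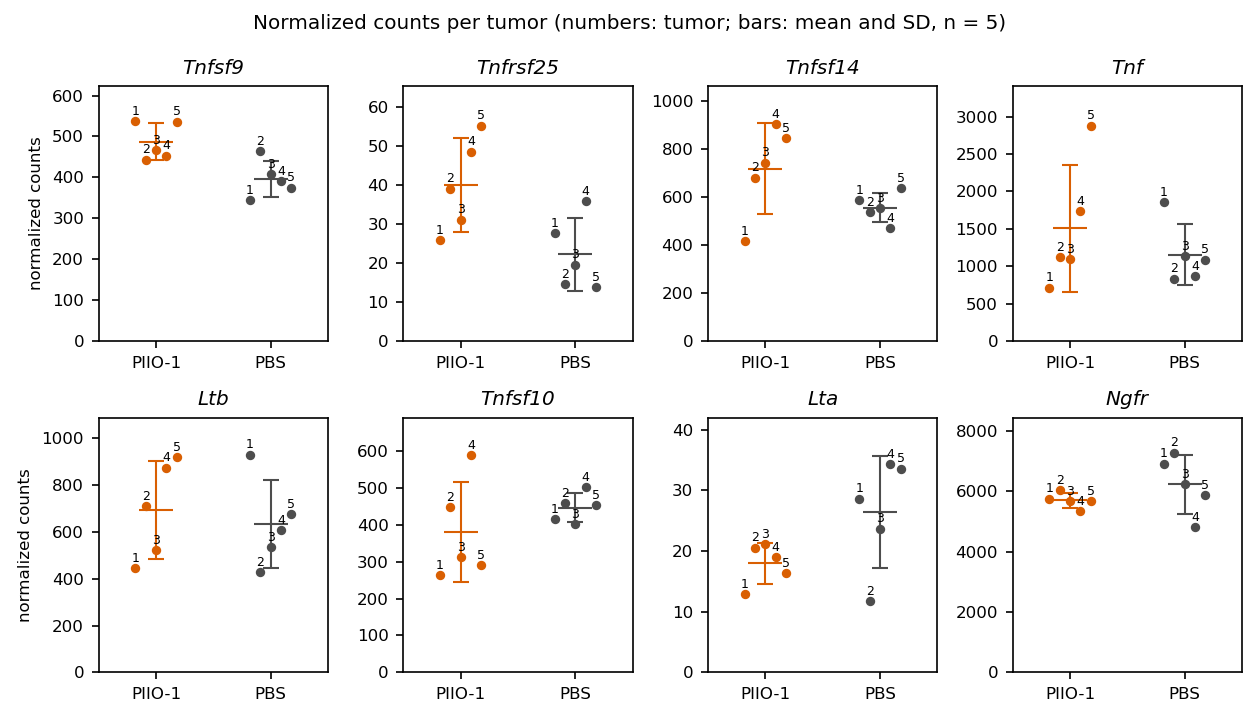
Normalized counts of 8 members in each tumor (numbers name the tumor; bars are the mean and SD, n = 5; every axis starts at 0), with PIIO-1 left of PBS. Tnfsf9 is at 443 to 537 in PIIO-1 tumors and 345 to 463 in PBS tumors, and Tnf is spread by PIIO-1 tumor 5 at 2879.5.

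Among death-domain receptors, Tnfrsf25 (DR3), a costimulatory receptor of T cells, had the largest difference of any member tested. Its level was 0.564 and 0.325 RPKM in PIIO-1 and PBS tumors, with 25.9, 39.1, 31.2, 48.7 and 55.4 normalized counts in PIIO-1 tumors 1 to 5, against 27.7, 14.6, 19.6, 35.9 and 13.8 in PBS tumors 1 to 5. PIIO-1 tumors were higher in 22 of 25 pairs, and PIIO-1 tumors 2, 4 and 5 were above every PBS tumor. The means were 40.0 ± 12.1 in PIIO-1 tumors and 22.3 ± 9.39 in PBS tumors (SD, n = 5 each), a difference of 0.85 (SE 0.30, 95% interval 0.19 to 1.51) with a limma p of 0.0157 and a Benjamini-Hochberg adjusted p of 0.837; it was 0.71 to 1.04 with each tumor left out. Its ligand Tnfsf15 had a negative difference, given with the ligands.

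The widely expressed death receptors differed little. Tnfrsf1a had 5580.4, 6205, 6018, 7605 and 7432 normalized counts in PIIO-1 tumors 1 to 5, against 7118, 5763, 6282, 5959 and 6321 in PBS tumors 1 to 5. PIIO-1 tumors 4 and 5 were highest and PIIO-1 tumor 1 lowest, and the difference was 0.056 (SE 0.091, 95% interval -0.14 to 0.25). Fas, through which Fas ligand kills, had 281, 347, 336, 530.3 and 525 normalized counts in PIIO-1 tumors 1 to 5, against 544, 317, 323, 264 and 361 in PBS tumors 1 to 5. The 3 highest values were those of PBS tumor 1 and PIIO-1 tumors 4 and 5, with a difference of 0.16 (SE 0.22), from 0.046 to 0.31 with each tumor left out. Tnfrsf10b, the mouse TRAIL death receptor, had 2176, 1809.5, 2044, 1653 and 1692 normalized counts in PIIO-1 tumors 1 to 5, against 1741, 2043, 1752, 1958 and 1722 in PBS tumors 1 to 5. Its groups were interleaved, and its interval was narrow at 0.02 (SE 0.084, 95% interval -0.16 to 0.20). Ngfr had 5754, 6043, 5682, 5350.3 and 5681 normalized counts in PIIO-1 tumors 1 to 5, against 6915, 7282, 6248, 4805 and 5877 in PBS tumors 1 to 5. PIIO-1 tumors lay close together within the wider PBS range, and the difference was -0.11 (SE 0.096, 95% interval -0.32 to 0.097). Tnfrsf21 (DR6) ranged over 583 to 781 normalized counts in PIIO-1 tumors and 585 to 791 in PBS tumors, a difference of -0.084 (SE 0.095).

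Receptors that bind TRAF adaptors included the most precisely measured members. Ltbr had 2667, 2763, 2736, 3004 and 2763 normalized counts in PIIO-1 tumors 1 to 5, against 3002, 2732, 2685, 2781 and 2903 in PBS tumors 1 to 5, the narrowest interval of the 32, at -0.017 (SE 0.047, 95% interval -0.12 to 0.086). Tnfrsf12a, called Fn14 and induced in tissue injury, had 4643, 4242, 4786, 4184 and 4843 normalized counts in PIIO-1 tumors 1 to 5, against 4597, 5456, 4555, 4189.8 and 4274 in PBS tumors 1 to 5, a difference of -0.020 (SE 0.074, 95% interval -0.18 to 0.14). Both intervals exclude a change of 1.5-fold in either direction. Tnfrsf1b had 6433, 7074, 7478, 9089.6 and 9669.6 normalized counts in PIIO-1 tumors 1 to 5, against 8131, 6437, 7065, 6460.2 and 7609 in PBS tumors 1 to 5. PIIO-1 tumors 4 and 5 were above every PBS tumor and the other PIIO-1 tumors were not, with a difference of 0.14 (SE 0.11, 95% interval -0.10 to 0.39). Tnfrsf14 (HVEM), which binds LIGHT, had 748, 968, 790.1, 1240.5 and 972 normalized counts in PIIO-1 tumors 1 to 5, against 1208, 876, 1007, 1072 and 957 in PBS tumors 1 to 5. Its highest and lowest tumors were both PIIO-1 tumors, 4 and 1, and the difference was -0.13 (SE 0.13). Tnfrsf13c, the BAFF receptor of B cells, was at 0.264 and 0.336 RPKM in PIIO-1 and PBS tumors, with 16.9, 20.6, 11.1, 11.6 and 23.6 normalized counts in PIIO-1 tumors 1 to 5, against 21.0, 20.5, 19.6, 26.5 and 16.4 in PBS tumors 1 to 5. PIIO-1 tumors 1, 3 and 4 were at the lower end and the difference was -0.34 (SE 0.25). Tnfrsf11a (RANK) ranged over 244 to 415 normalized counts in PIIO-1 tumors and 231 to 387 in PBS tumors (difference 0.097, SE 0.17), Tnfrsf13b (TACI) over 223 to 380.0 normalized counts in PIIO-1 tumors and 228 to 384 in PBS tumors (difference 0.042, SE 0.18) and Tnfrsf8 (CD30) over 45.4 to 62.3 normalized counts in PIIO-1 tumors and 43.7 to 83.5 in PBS tumors (difference -0.13, SE 0.21). Tnfrsf17 (BCMA, a plasma cell receptor) had 5 reads over all PIIO-1 tumors, all in tumor 5, and 11 over all PBS tumors, and Tnfrsf19 had 21 and 14.

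Decoy and soluble receptors were led by Tnfrsf22, a mouse decoy receptor for TRAIL at 37.7 and 37.8 RPKM in PIIO-1 and PBS tumors, which ranged over 4165 to 5808 normalized counts in PIIO-1 tumors and 4002 to 5203 in PBS tumors, a difference of 0.017 (SE 0.11). Its neighbour Tnfrsf23, another such decoy, ranged over 953 to 1384 normalized counts in PIIO-1 tumors and 807 to 1271 in PBS tumors (difference 0.13, SE 0.13), and the adjoining Tnfrsf26 over 556 to 1015 normalized counts in PIIO-1 tumors and 434 to 831 in PBS tumors (difference 0.22, SE 0.21); without PIIO-1 tumor 5 and PBS tumor 4 these differences were -0.029 for Tnfrsf23 and -0.030 for Tnfrsf26. The 3 genes lie on chromosome 7 between 143607659 and 143685872. Tnfrsf22 and Tnfrsf23 share 719 stretches of 50 bases, 17.3% and 18.0% of those in each, so counting could split their reads. Tnfrsf22 also shares such stretches with other genes, among them Gm47486 (369, 8.90%) and AC136710.2 (321, 7.74%), which adds to this uncertainty. The antisense RNA E230032D23Rik overlaps 164 exon bases of Tnfrsf23 and 107 of Tnfrsf26. Tnfrsf11b encodes osteoprotegerin, the soluble decoy for RANKL, and had 28.8, 32.3, 22.1, 16.9 and 9.98 normalized counts in PIIO-1 tumors 1 to 5, against 15.3, 19.5, 26.9, 9.36 and 30.1 in PBS tumors 1 to 5. The groups overlapped over nearly their whole range, with a difference of 0.12 (SE 0.37, 95% interval -0.70 to 0.93).

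Many members shared their extreme tumors. Among the 32 tested members, PIIO-1 tumors 4 and 5 were each the highest tumor for 8 (25% each), whereas they were highest for 11.1% and 16.7% of all genes tested. PIIO-1 tumor 1 was the lowest for 9 members (28.1%), against 13.2% of all genes. The T cell score (mean log2 of normalized count + 1 over 8 markers) was 7.82, 8.57, 7.89, 8.85 and 9.25 in PIIO-1 tumors 1 to 5, against 9.15, 8.47, 8.47, 8.25 and 8.35 in PBS tumors 1 to 5. It was thus lowest in PIIO-1 tumor 1 and highest in PIIO-1 tumor 5, and its part in these counts was not tested. The shared high and low tumors were noticed after the values were seen.

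**Figure D4:**
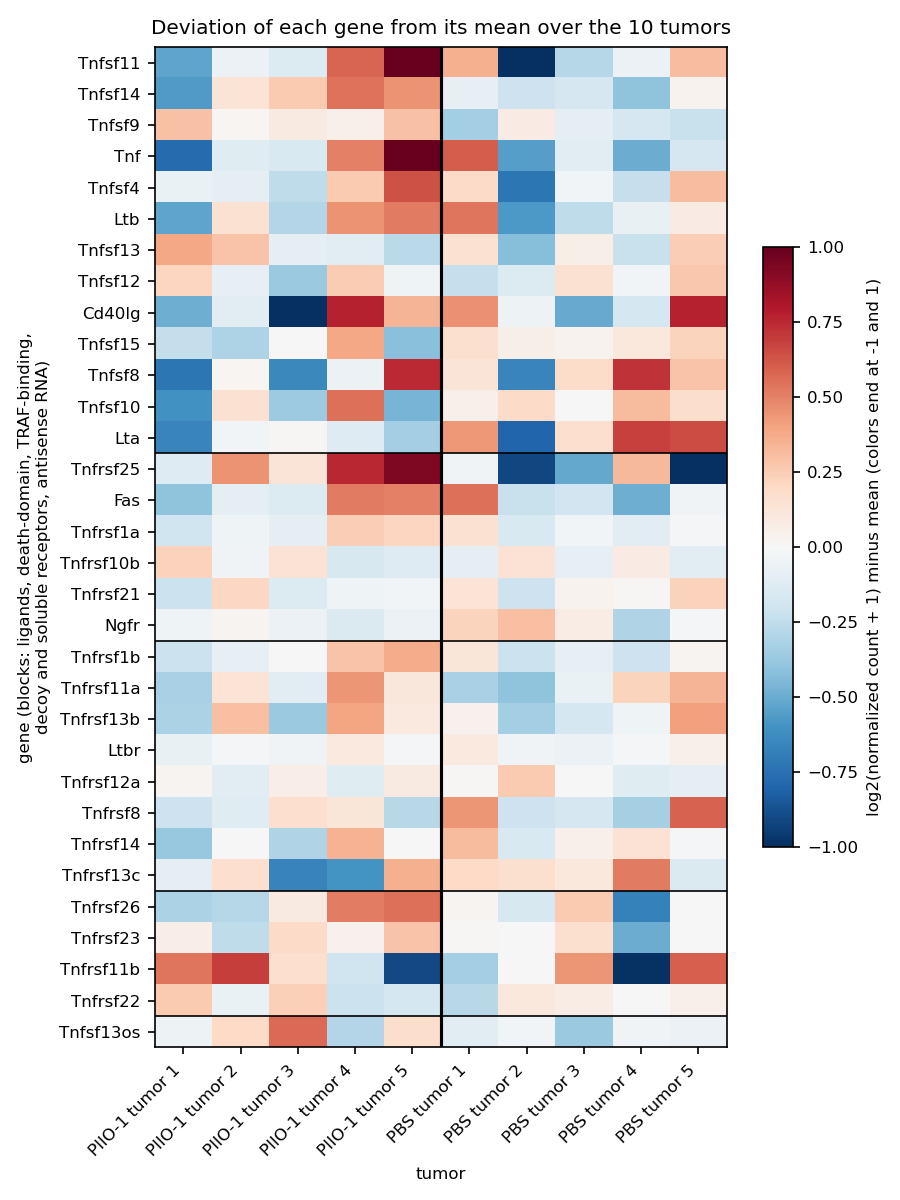
Deviation of each of the 32 tested genes from its own mean over the 10 tumors, in log2(normalized count + 1), with PIIO-1 tumors left and PBS tumors right of the line and genes in blocks by role. PIIO-1 tumors 4 and 5 are the highest for 8 genes each, and PIIO-1 tumor 1 is the lowest for 9.

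Levels of 14 members were compared across tumors with the marker score of a cell type known to make them, with Benjamini-Hochberg adjustment over the 14. Members and marker sets were chosen with earlier results of these data known, and the adjustment does not cover that choice. Each member was set against a single list, so other cell types were not compared. Both measures of a pair come from the same libraries and the points pool both groups. Ltb followed the T cell score with Pearson's r of 0.83 (permutation p = 0.00332, adjusted 0.0465, n = 10) and Spearman's rho of 0.77 (permutation p = 0.0128, adjusted 0.0899). Without the tumors farthest from the median score, PIIO-1 tumor 5 and PBS tumor 1, r was 0.66; the adjusted p passed 0.05 in 2 of the 10 fits that left out 1 tumor, so the call rests on the full set. With each tumor taken as its deviation from its group mean, r was 0.85 for this pair and 0.70 for Tnfsf14 with neutrophils. Tnfsf14 and the neutrophil score gave r of 0.78 (permutation p = 0.00753, adjusted 0.0527, n = 10) and rho of 0.82 (permutation p = 0.00615, adjusted 0.0861), and r was 0.55 without PIIO-1 tumors 4 and 5. The neutrophil score was 10.8, 10.9, 11.1, 11.5 and 11.9 in PIIO-1 tumors 1 to 5, against 11.3, 10.6, 11.0, 10.4 and 10.8 in PBS tumors 1 to 5. Tnfrsf11a with the macrophage score gave r of 0.69 (permutation p = 0.0283, adjusted 0.108) and rho of 0.64 (permutation p = 0.0550, adjusted 0.154), and r was 0.54 without PIIO-1 tumor 1 and PBS tumor 5. Cd40lg with the T cell score gave r of 0.68 (permutation p = 0.0308, adjusted 0.108) and rho of 0.65 (permutation p = 0.0490, adjusted 0.154), and leaving out the same pair as for Ltb gave r of 0.69. The other 10 relations had r between 0.031 (Ngfr with nerve markers) and 0.61 (Tnfsf11 with T cells), with an adjusted permutation p of at least 0.161. Among them Lta and Tnfrsf25, both set against T cells, gave r of 0.075 and 0.39.

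**Figure D5:**
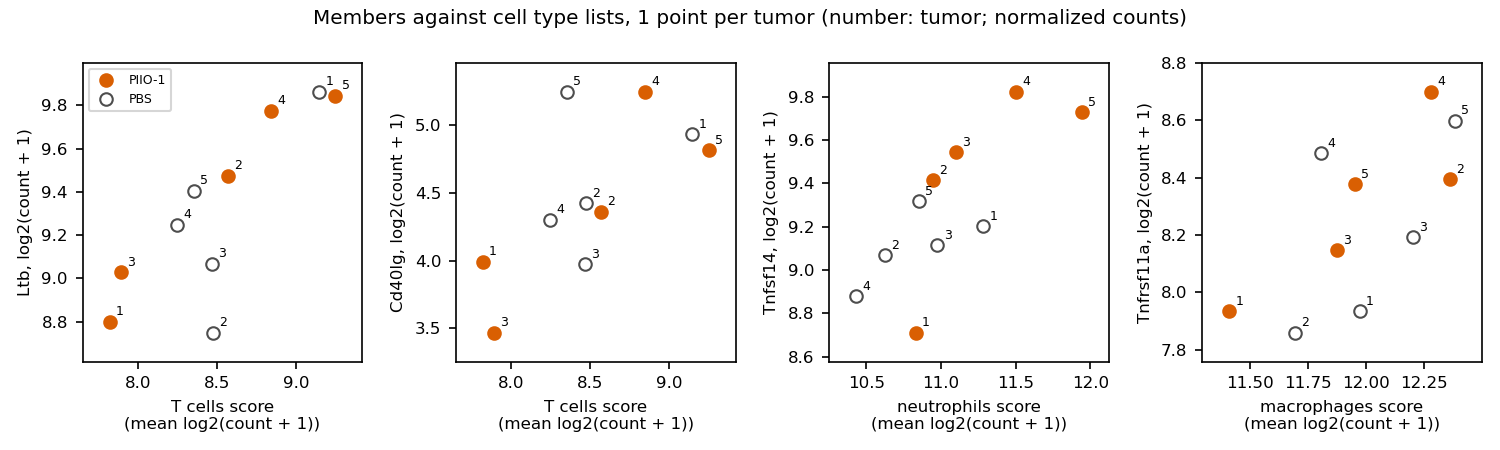
Level of Ltb, Cd40lg, Tnfsf14 and Tnfrsf11a against the marker score of a cell type, both as log2(normalized count + 1), with 1 numbered point per tumor (filled for PIIO-1, open for PBS). The 4 pairs shown are those with the largest r; for Ltb, PIIO-1 tumor 5 and PBS tumor 1 lie at the upper end, and r is 0.83 with them and 0.66 without.

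The wider pathway was described with 72 tested genes in 5 lists, of which 0 passed limma's adjusted test (0% of all genes did); at an unadjusted p under 0.05, 6 were higher and 2 lower in PIIO-1 tumors, against 2.86% and 2.77% of all genes. Of 5 superfamily genes outside the symbol rule (Fasl, Cd40, Cd27, Relt and Eda2r), 1 had a positive difference; Eda2r, a receptor of ectodysplasin, had -0.17 (SE 0.087) and Cd40 -0.15 (SE 0.18). Fasl, the ligand of Fas, had 145, 303, 143, 376 and 325 normalized counts in PIIO-1 tumors 1 to 5, against 361, 217, 220.5, 214 and 261 in PBS tumors 1 to 5, a difference of -0.064 (SE 0.28). Adaptors and death signalling genes, 11 of 19 positive with a median of 0.024, were led by Bid, a link from caspase-8 to mitochondria (difference -0.18, SE 0.063), and the adaptor Traf5 (difference 0.12, SE 0.051). NF-kB kinases, factors and brakes, 14 of 23 positive with a median of 0.022, were led by Map3k14, the kinase NIK of the noncanonical route downstream of Ltbr (difference 0.23, SE 0.092), and Nfkb1 (difference 0.18, SE 0.072). Genes of ligand shedding and processing, 4 of 6 positive with a median of 0.052, were led by Sppl2b (difference -0.078, SE 0.043) and Furin (difference 0.22, SE 0.14).

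Known NF-kB target genes had positive differences in 16 of 19 tested, against 8571 of the 16767 genes tested. Their median was 0.21 against 0.0027 over all genes, and 0 passed the adjusted test. The list was chosen with earlier results of these data known. At an unadjusted p under 0.05, 3 were higher (Cxcl1, Cxcl5 and Ccl2) and 1 was lower (Vcam1) in PIIO-1 tumors. Over all genes tested, 2.86% were higher and 2.77% lower at this threshold. The neutrophil attractants Cxcl1 and Cxcl5 had the smallest p. Cxcl1 had 601, 547, 775, 714 and 1363 normalized counts in PIIO-1 tumors 1 to 5, against 634, 426, 429, 512 and 604 in PBS tumors 1 to 5. PIIO-1 tumor 5 stood well above the rest, and the difference was 0.56 (SE 0.22), from 0.35 to 0.67 with each tumor left out. Cxcl5 had 11.9, 6.85, 15.1, 20.1 and 61.7 normalized counts in PIIO-1 tumors 1 to 5, against 7.64, 6.83, 8.98, 10.9 and 4.31 in PBS tumors 1 to 5. Again PIIO-1 tumor 5 was the highest, and the difference was 1.13 (SE 0.48), from 0.69 to 1.44 with each tumor left out. Ccl2, a monocyte attractant, had a difference of 0.37 (SE 0.16). Its normalized counts were 2851, 3527, 4174, 3591 and 3031 in PIIO-1 tumors 1 to 5. In PBS tumors 1 to 5 they were 2047, 2316, 2673, 2523 and 3969. PIIO-1 tumor 3 was thus its highest tumor, and PIIO-1 tumor 5 was below PBS tumor 5. Vcam1, an adhesion molecule for leukocytes, had 2430.1, 2461, 1810.4, 2061 and 1502 normalized counts in PIIO-1 tumors 1 to 5, against 2986, 1874, 2589, 3032 and 2522 in PBS tumors 1 to 5. PIIO-1 tumors 3 and 5 were the lowest of the 10, the groups overlapped through PBS tumor 2, and the difference was -0.34 (SE 0.16). PIIO-1 tumor 5 also had the highest Tnf and the highest neutrophil score of the 10 tumors, and their part in these differences was not tested.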

How the data were processed

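Bulk RNA from 10 tumors was analysed, 5 per group by the treatment label. The samples whose treatment label is PIIO-1 carry another name, a4D3, in their titles and in the table's columns, and were grouped by the label. Per the submitters' processing notes, HISAT2, featureCounts and DESeq2 were used with build GRCm38; their versions, the strand setting and the annotation are not stated in these sources. Values in the deposited table are a signal, counts that the table's name calls normalized by DESeq2. Dividing each column by its step gave whole reads (100% of values within 0.001 read), although in 2 PIIO-1 columns the step is close to 1. Because the unit is not raw counts, the main test was limma 3.58.1 (R 4.3.3, intensity trend, two-sided) on log2(value + 1), PIIO-1 minus PBS, for 16767 genes with a mean of at least 10, with Benjamini-Hochberg adjustment over all of them at 0.05; on this scale changes of low genes come out too small. edgeR 4.0.16 and DESeq2 1.42.0 were run on the recovered reads with the deposited scaling, DESeq2 without independent filtering. These settings of both tools were chosen after results of other settings had been seen, and no member was called under any of them. The fit was also run on simulated counts, with the same dispersion for every gene and changes placed only in genes of higher mean. That run does not match the spread of the members, so it cannot show how well changes in them would be found. Each pair of libraries differed by more than counting noise (chi-square per gene at least 10.7).

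Levels per length used GENCODE M21 exon lengths. Members given in full were a panel of 18, those with an unadjusted p under 0.05, those with groups that do not overlap, and the 10 with the smallest p; of each pathway list, the 2 genes with the smallest p were named. Fasl, Ccl2 and Vcam1 were added after their values were seen. Members, lists and marker sets were chosen with earlier results of these data known. Relations used permutation tests with 100000 resamples. Intervals cover the spread between tumors, and read floors cover counting error only.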

Additional observations from a re-analysis of the deposited data

Results flagged for a closer look

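In 3 of 64 groups of 5 tumors, 1 tumor was far from the others by Dixon's criterion, which chance exceeds in about 1 group in 20. Ltbr was highest in PIIO-1 tumor 4, at 3004 normalized counts, where the gap to the next tumor was 0.714 of the group's range. Tnfrsf22 was lowest in PBS tumor 1, at 4001.5 normalized counts (0.711 of the range). Tnfsf13os was lowest in PBS tumor 3, at 22.0 normalized counts (0.754 of the range).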

How the results depend on the processing

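No member was called in any setting tried: other pseudocounts, filters, scalings, no trend, array weights, edgeR, DESeq2, each tumor left out, or removal of both PIIO-1 tumor 5 and PBS tumor 4 (added after the data were seen). The lowest adjusted p of a named member was 0.462, with DESeq2. Over all genes, limma and edgeR called 0 (944 and 972 at an unadjusted p under 0.05), while DESeq2 called 3 (Gm17828, Ifi208 and Trib1, none a member and named after their values were seen). With its independent filtering on, DESeq2 called 1 (Trib1) and left 8777 adjusted p-values missing; filtering was on in the first runs and was then turned off because the genes had already been filtered on their mean, a choice made after this count of 1 and the 3 calls of an earlier analysis of the table had been seen. edgeR was first run with TMM scaling, which also called 0.

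Deviations of same-numbered tumors correlated at -0.206 to 0.0954, and those of tumors with different numbers at -0.241 to 0.267. These values cannot show whether same-numbered tumors had anything in common beyond the number. With the replicate block in limma, 0 members and 0 genes were called, and 2 members had an unadjusted p under 0.05. 0 of 5 PIIO-1 tumors correlated best with the PBS tumor of their number.

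With both PIIO-1 tumor 5 and PBS tumor 4 removed, 6 of 32 tested members turned negative: Fas (-0.053), Ltb (-0.0013), Tnf (-0.082), Tnfrsf1a (-0.0099), Tnfrsf23 (-0.029) and Tnfrsf26 (-0.030). With 1 tumor left out, 12 of 32 turned sign in some fit: Cd40lg (-0.42 to 0.029), Ltb (-0.011 to 0.27), Ltbr (-0.045 to 0.0054), Tnfrsf10b (-0.036 to 0.063), Tnfrsf11b (-0.12 to 0.36), Tnfrsf12a (-0.053 to 0.042), Tnfsf12 (-0.071 to 0.084), Tnfsf13 (-0.020 to 0.15), Tnfrsf8 (-0.23 to 0.0049), Tnfrsf11a (-0.00057 to 0.19), Tnfrsf13b (-0.051 to 0.15) and Tnfrsf22 (-0.05 to 0.073). Another 18 kept their sign but changed over 1.5 times in size in some fit. The cause was not tested.

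The relation of Ltb to T cells was 0.82 with the median of the markers as score (adjusted permutation p = 0.0545) and 0.78 to 0.94 with 1 tumor left out. With 1 tumor left out, Cd40lg with T cells ranged over 0.57 to 0.84, Tnfsf11 with T cells over 0.42 to 0.83 and Tnfsf14 with neutrophils over 0.73 to 0.83, each passing in 1 of 10 fits. Lta (-0.21 to 0.25), Tnfrsf13c (-0.36 to 0.25), Tnfsf15 (-0.058 to 0.60), Tnfrsf11b (-0.34 to 0.36) and Ngfr (-0.22 to 0.31) turned sign.

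Members under 10 normalized counts rest on at most 12 reads in a tumor, which limits what can be said of Cd70, Tnfsf18, Tnfrsf17 and Tnfrsf19.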
